A study of Mus musculus with 2 samples.

Results

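The genes that build, load and induce MHC class I were followed through the endothelial sorts of 2 orthotopic tumor models. The set was chosen by gene symbol and held 10 of the 31055 features in the count matrices: H2-K1, H2-D1, B2m, Tap1, Tap2, Tapbp, Psmb8, Psmb9, Psmb10 and Nlrc5. Each matrix is 1 droplet-based single-cell library, in which transcripts are read near their 3' end and each captured molecule is counted once by its molecular tag (UMI). One library came from mammary tumors grown from a PyMT line (derived from mice with the polyoma middle T antigen driven by the mouse mammary tumor virus promoter), the other from pancreatic tumors grown from a KPC line. In both, 100000 tumor cells had been implanted orthotopically in wild-type (WT) female C57BL6 mice at 6 weeks of age, tumors were taken at day 10, and endothelial cells were enriched by removing CD45, EpCAM, Ter119 and podoplanin positive events. The number of mice behind a library was not stated, and the tumor line, the organ, the collagenase concentration and the library cannot be told apart between the models. With 1 library per model no test was possible, cells are not replicates, and all intervals below are 95% intervals that cover counting error only.

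Barcodes were kept at 500 or more genes and less than 10% mitochondrial UMIs (11744 in PyMT, 9591 in KPC, with 151 barcode sequences present in both) and put in 9 classes by UMIs of paired markers, in the order Krt8 and Krt18 (tumor), Col1a1 and Col1a2 (fibroblast), Mmrn1 and Prox1 (lymphatic), Notch3 and Higd1b (pericyte), Ackr1 and Selp (venule), Gja5 and Sema3g (artery), Apln and Angpt2 (tip), Car4 and Cd300lg (capillary), and other. Capillary barcodes numbered 2597 in PyMT and 1297 in KPC, with median depths of 4254 and 1879 UMIs, the widest depth gap of the 4 vessel classes. The venule class held 360 and 640 barcodes, the artery class 126 and 105, the tip class 1991 and 1302, the lymphatic class 633 and 802, and the other class 5603 and 4089. Of venule barcodes 52.5% in PyMT and 22.2% in KPC also met the rule of another class. This share was 40.0% and 14.1% in tip, 26.7% and 34.0% in lymphatic and 59.3% and 24.4% in pericyte barcodes. It is 0% in capillary barcodes because their rule comes last. The pericyte class (27 and 119) and the fibroblast class (28 and 443) were thin in PyMT, and pericyte barcodes kept Pecam1, an endothelial adhesion molecule, at 622 and 523 CPM (UMIs of the gene scaled to a library total of 1000000). The class set by Krt8 and Krt18 held 379 and 794 barcodes. Its KPC barcodes had the epithelial keratins Krt19 at 2789 and Krt7 at 1482 CPM, whereas its PyMT barcodes had 1.02 and 17.7 CPM. The low PyMT keratins make the label of tumor cells doubtful there, so it is called the Krt8/Krt18 class here. Epcam stood at 19.7 CPM in its PyMT barcodes, after a sort that removed EpCAM-positive events. The 5 epithelial markers Epcam, Krt7, Krt19, Cldn4 and Cldn7 summed to 42.1 CPM in PyMT and 4493 CPM in KPC barcodes of this class. In every other PyMT class they summed to 13.5 CPM (lymphatic) or less. The PyMT barcodes were thus higher in these markers than the rest of their library but far below KPC. Barcodes with UMIs of immune genes made up at most 3.57% of any class.

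Class I molecules display peptides from inside the cell to CD8+ T cells. H2-K1 and H2-D1 encode the polymorphic heavy chains and B2m the light chain they need to reach the surface. Peptides are cut by the proteasome, whose catalytic subunits Psmb5, Psmb6 and Psmb7 are exchanged for Psmb8, Psmb9 and Psmb10 in the immunoproteasome, are moved into the endoplasmic reticulum by the Tap1 and Tap2 transporter, and are loaded with the help of the chaperone Tapbp (tapasin). Nlrc5 is the transactivator of class I promoters, and interferons induce nearly the whole set. Endothelial cells carry class I on their surface throughout the body.

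The genes sit close together. On GRCm38 (GENCODE M21), H2-K1 lies at chr17:33996017-34000347 on the minus strand, Tapbp at chr17:33915899-33929292, Psmb9 at chr17:34181987-34187764 (minus), Tap1 at chr17:34187553-34197225, Psmb8 at chr17:34197721-34201454, Tap2 at chr17:34203527-34216321 and H2-D1 at chr17:35262730-35267499, all within the MHC of chromosome 17. B2m lies at chr2:122147686-122153083, and Psmb10 (chr8:105935735-105938444, minus) and Nlrc5 (chr8:94434356-94527272) lie apart on chromosome 8. Tap1 and Psmb9 are divergent neighbors whose annotated genes overlap, and 275 of the 300 promoter bases of the one are the same stretch, on the other strand, as those of the other. RefSeq promoters (250 bases before to 50 after the start, GRCm38.p6) were at hand for 8 of the 10 genes, not Tap2 or Nlrc5. Promoters are shown for the genes that were lowest in the Krt8/Krt18 class in both libraries, B2m, both heavy chains, Tap1 (whose window holds most of that of Psmb9) and Psmb8. Capitals mark matches, on either strand, to 4 short motifs: the core of the interferon-stimulated response element (GAAA, any 2 bases, GAAA), the gamma-activated sequence TTCNNNGAA, the X2 box core TGACG and the Y box CCAAT, none of which overlaps another in these windows.
B2m, chr2:122147437-122147736, plus strand: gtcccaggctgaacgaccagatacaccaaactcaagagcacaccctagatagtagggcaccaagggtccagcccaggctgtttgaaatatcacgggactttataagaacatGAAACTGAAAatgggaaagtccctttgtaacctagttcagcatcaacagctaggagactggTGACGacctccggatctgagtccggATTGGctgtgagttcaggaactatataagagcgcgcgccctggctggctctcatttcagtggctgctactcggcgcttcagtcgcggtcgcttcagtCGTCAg
H2-K1 (1 of its 2 listed starts), chr17:34000298-34000597, minus strand: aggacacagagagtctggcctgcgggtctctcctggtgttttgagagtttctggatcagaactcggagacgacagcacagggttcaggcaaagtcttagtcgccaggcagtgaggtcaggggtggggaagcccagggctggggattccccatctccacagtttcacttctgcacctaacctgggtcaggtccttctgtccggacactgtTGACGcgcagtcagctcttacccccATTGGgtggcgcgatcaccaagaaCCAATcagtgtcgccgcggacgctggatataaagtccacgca
H2-D1, chr17:35262844-35263143, plus strand: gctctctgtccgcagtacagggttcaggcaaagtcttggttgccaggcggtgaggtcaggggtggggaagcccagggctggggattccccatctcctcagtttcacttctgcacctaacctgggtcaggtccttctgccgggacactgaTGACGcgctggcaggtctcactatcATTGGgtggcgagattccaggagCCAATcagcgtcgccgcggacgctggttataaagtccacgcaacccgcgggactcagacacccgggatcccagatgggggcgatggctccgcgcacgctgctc
Tap1, chr17:34187306-34187605, plus strand: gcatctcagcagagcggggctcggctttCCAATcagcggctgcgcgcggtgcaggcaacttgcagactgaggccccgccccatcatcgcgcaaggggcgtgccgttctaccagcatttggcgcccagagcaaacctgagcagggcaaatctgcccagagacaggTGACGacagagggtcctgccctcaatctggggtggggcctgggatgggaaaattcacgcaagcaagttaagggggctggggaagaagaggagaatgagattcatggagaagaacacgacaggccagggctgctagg
Psmb8, chr17:34197945-34198244, plus strand: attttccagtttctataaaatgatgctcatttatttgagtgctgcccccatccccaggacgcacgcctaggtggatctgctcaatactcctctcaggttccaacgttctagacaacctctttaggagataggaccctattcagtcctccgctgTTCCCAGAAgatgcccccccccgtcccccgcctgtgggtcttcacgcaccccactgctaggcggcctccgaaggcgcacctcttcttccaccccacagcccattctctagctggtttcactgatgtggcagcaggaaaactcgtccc
The windows of B2m, H2-K1, H2-D1 and Tap1 held both an X2 box core and a Y box, and that of Psmb8 held neither. Over the 8 genes, the X2 box core was found in 5 and the Y box in 6, against 20.8% and 37.4% of all 32851 promoters in the table. Both counts include Tap1 and Psmb9, which share most of their windows. The response element core was found in B2m only (3.44% of all promoters) and the gamma-activated sequence in Psmb8 only (8.30%). A match is a string of letters, not a bound site. Only these exact strings were searched, so a window without a match may still hold an element that differs from them.

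B2m was by far the most abundant member in capillary barcodes of both libraries, followed by H2-D1, H2-K1 and Psmb8. Levels are CPM of the summed UMIs of a class, and since 1 transcript gives 1 UMI they need no correction for gene length. In capillary barcodes B2m stood at 3605 CPM (3572 to 3638) in PyMT and 5111 CPM (5037 to 5185) in KPC. H2-D1 stood at 1496 CPM (1475 to 1518) and 2396 CPM (2346 to 2448), above H2-K1 at 743 CPM (728 to 758) and 1130.2 CPM (1096 to 1166). Together the heavy chains and B2m took 0.864% of all UMIs of KPC capillary barcodes and 0.107% of those of the KPC Krt8/Krt18 class, the ends of the range over the 18 class-by-library levels. H2-K1 made up 28.1% (KPC artery) to 41.5% (PyMT fibroblast) of the UMIs of both heavy chains. These genes are close copies: up to 22.4% of the 50-base windows in the last 500 bases of an H2-K1 transcript occur unchanged in another annotated gene, H2-D1 and the H2-Q genes among them, and up to 9.65% for H2-D1, so their counts carry some uncertainty. Transcripts of Tapbp shared 0% to 15.5% of such windows with Zbtb22, which overlaps it on the same strand, and those of Tap1 0% to 5.54% with Tap2. No such window of the B2m, Psmb8, Psmb9, Psmb10, Tap2 or Nlrc5 transcripts was shared.

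**Figure D1:**
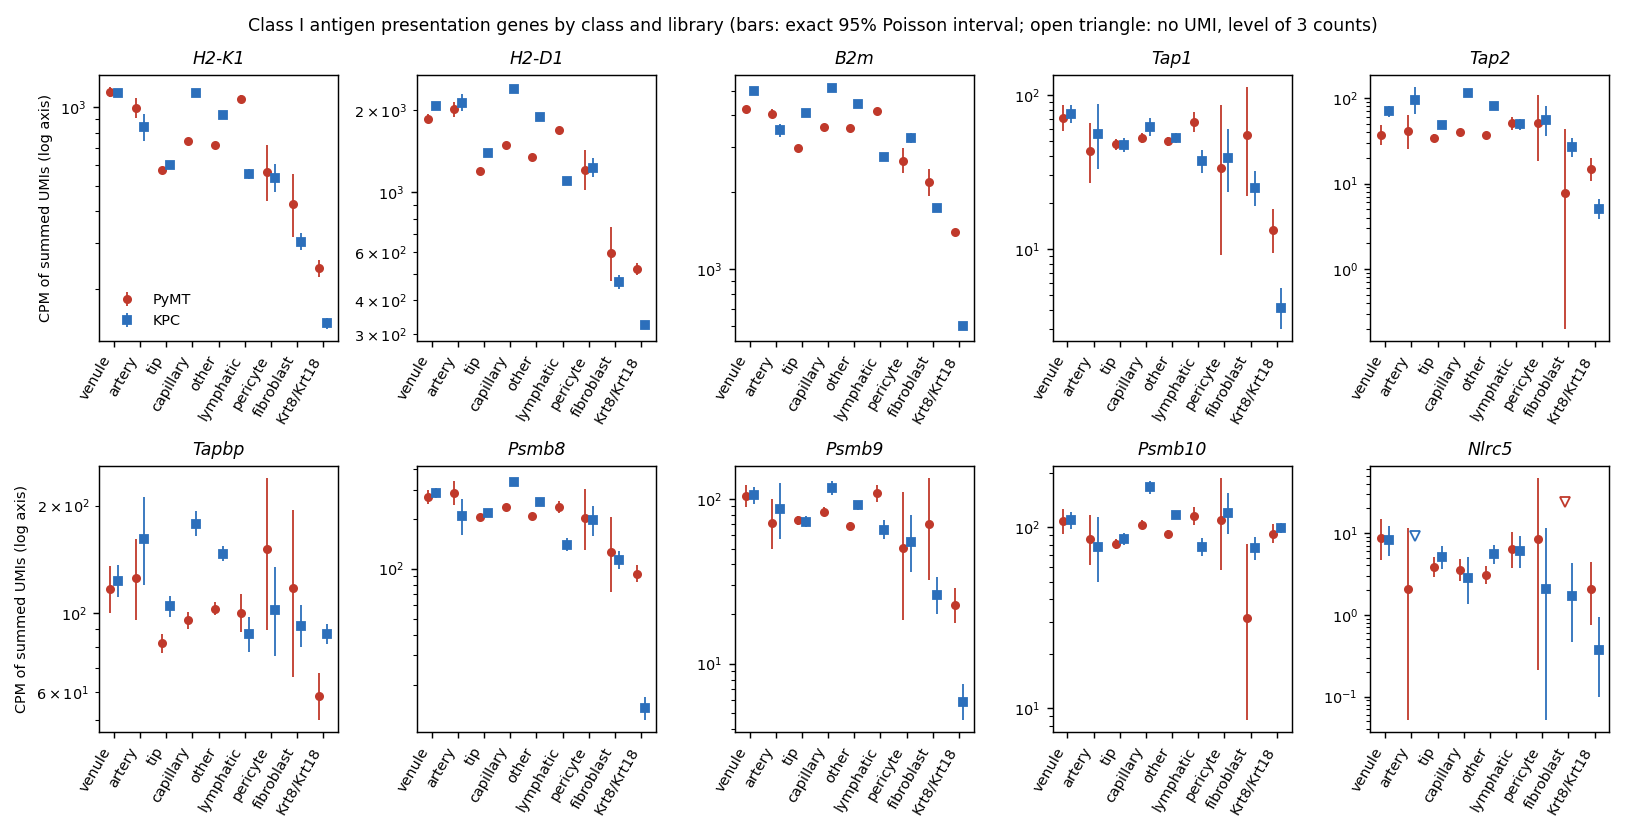
Level of each gene (CPM of summed UMIs, log axis) in the 9 classes, with PyMT as red circles, KPC as blue squares and exact 95% Poisson intervals as bars; open triangles mark classes without a UMI at the level of 3 counts. B2m was highest in KPC capillary barcodes (5111 CPM) and lowest in the KPC Krt8/Krt18 class (599 CPM), while Psmb10 spanned a much narrower range among well-filled classes.

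The immunoproteasome subunits were led by Psmb8, at 235 CPM (226 to 243) in PyMT and 333 CPM (314 to 352) in KPC capillary barcodes. Psmb10 stood there at 103 and 166 CPM and Psmb9 at 83.7 and 117 CPM. Tapbp reached 95.3 and 178 CPM, and the transporter genes were lower, with Tap1 at 52.5 and 62.1 and Tap2 at 40.0 and 113 CPM. The transactivator was near the detection limit everywhere. Nlrc5 was highest in venules, at 8.67 CPM (4.61 to 14.8) and 8.20 CPM (5.25 to 12.2), from 13 and 24 UMIs. No UMI of it was seen in KPC artery or PyMT fibroblast barcodes, where 3 counts would correspond to 9.27 and 23.6 CPM, so its neighbors in the order of classes could not be separated.

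The order of the classes was alike for the heavy chains and the light chain at its lower end but differed between the libraries at its upper end. In PyMT, B2m was highest in venules (4230.3 CPM), lymphatic (4177 CPM) and artery barcodes (4071 CPM), neighbors whose intervals overlapped, then came capillary, other (3558 CPM) and tip barcodes (2993 CPM). In KPC, capillary and venule barcodes (4996 CPM) led with overlapping intervals, and lymphatic barcodes, at 2755 CPM, were below every blood vessel class. H2-K1 followed the same order in PyMT, with 1145 CPM in venules, 1073 in lymphatic and 574 in tip barcodes. In both libraries the Krt8/Krt18 class was lowest for H2-K1, H2-D1, B2m, Tap1, Psmb8 and Psmb9. In PyMT its interval overlapped that of the thin fibroblast class for H2-D1 and Psmb8, and of the thin pericyte class for Tap1 and Psmb9. The Krt8/Krt18 class was not lowest for Psmb10 in either library, nor for Tapbp in KPC, where lymphatic barcodes (87.1 CPM) and the Krt8/Krt18 class (87.5 CPM) had overlapping intervals.

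Counted per barcode, after every barcode was thinned to 2000 UMIs and shallower ones were left out, B2m was found in 96.7% to 100% of venule, artery, tip, capillary, other and lymphatic barcodes of either library. H2-D1 was found in 91.3% of PyMT and 95.5% of KPC capillary barcodes, and H2-K1 in 71.3% and 80.4%. In the KPC Krt8/Krt18 class these shares were lower, with B2m in 60.7% (57.2 to 64.1), H2-D1 in 44.4% and H2-K1 in 23.1%. Psmb8 was found in 3.81% (2.58 to 5.39) of these barcodes and in 15.1% (11.7 to 19.1) of the PyMT ones. Thinning left out 230 of 2597 PyMT but 700 of 1297 KPC capillary barcodes, so the KPC shares rest on the deeper part of that class. Without thinning, Psmb8 was found in 13.5% of KPC and 38.3% of PyMT Krt8/Krt18 barcodes.

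Capillary barcodes carried less class I machinery in PyMT than in KPC tumors. Of the 10 members 5 were at least 1.5-fold lower in PyMT and 0 were higher, with a median log2 ratio of -0.55 against -0.14 over all features. A feature was counted when it differed at least 1.5-fold and had at least 20 UMIs over both sets, and 23.3% of the features tested in this class were lower by that rule. Tap2 differed most, at 40.0 CPM (36.6 to 43.6) in PyMT and 113 CPM (102 to 125) in KPC, a log2 ratio of -1.50 (-1.69 to -1.31). Tapbp had a log2 ratio of -0.90 (-1.04 to -0.76), from 95.3 and 178 CPM. The chaperone and the transporter subunit were thus the members furthest apart. Psmb10 had 103 and 166 CPM, a log2 ratio of -0.69 (-0.83 to -0.54). H2-D1 (-0.68, -0.72 to -0.64) and H2-K1 (-0.61, -0.66 to -0.55) were just past the fold. B2m (-0.50, -0.53 to -0.48), Psmb8 (-0.50, -0.60 to -0.41) and Psmb9 (-0.48, -0.65 to -0.32) were lower by less than the fold with intervals below 0, and Tap1 was closest to equal among the well-counted genes at -0.24 (-0.46 to -0.02). Depth moved with this comparison. Among barcodes of 2000 to 6000 UMIs (1647 in PyMT, 483 in KPC), 2 members were past the fold on the lower side and 1, the sparse Nlrc5, on the higher, with Tap2 at -1.45, Tapbp at -0.74, H2-D1 at -0.51 and H2-K1 at -0.45, so the sign held for these genes while the count did not. Markers of the class moved with it too: of 10 pan-endothelial markers, 6 were at least 1.5-fold lower and 1 higher in PyMT capillaries (median log2 ratio -0.64, summed level 5387 and 8177 CPM, none at 0), while 10 immune markers summed to 25.0 and 70.7 CPM with 1 at 0 in either library. Of 10 reference genes 3 were higher and 1 lower, and with the median of all features set to 0 only 2 members, Tap2 and Tapbp, were past the fold. The part of depth, of endothelial content and of immune RNA in the difference was not tested.

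Lymphatic barcodes differed in the opposite direction. Of the 10 members 6 were at least 1.5-fold higher in PyMT and 0 lower, where 6.24% of all tested features were higher, and the median log2 ratio was 0.61 against -0.05 over all features. H2-K1 stood at 1073 CPM (1034 to 1113) in PyMT and 552 CPM (528 to 578) in KPC, a log2 ratio of 0.96 (0.87 to 1.04). Tap1 had 66.7 and 37.0 CPM, a log2 ratio of 0.85 (0.52 to 1.19). Its divergent neighbor Psmb9 had 108 and 65.0 CPM (0.74, 0.48 to 0.99). Heavy chain, transporter and immunoproteasome genes were therefore all among the 6. Psmb8 (0.76, 0.59 to 0.93), H2-D1 (0.62, 0.56 to 0.69) and B2m (0.60, 0.56 to 0.64) completed them, and Psmb10 fell short of the fold at 0.57 (0.33 to 0.81). Tap2 (0.04, -0.29 to 0.37) and Tapbp (0.20, -0.04 to 0.44), the members that were lowest in PyMT capillaries, had intervals that held 0. Median depths were 3462 UMIs in PyMT and 3497 in KPC, and among barcodes of 2000 to 6000 UMIs 7 members were past the fold. The count was 3 without barcodes of 6 or more interferon-stimulated UMIs and 0 at 2-fold. In the former setting the UMIs were counted without thinning, and it kept 347 of 633 PyMT and 508 of 802 KPC barcodes. Deeper barcodes reach 6 such UMIs more readily, so depth was changed with it. Pan-endothelial markers were near level, with 1 of 10 higher, 0 lower and summed levels of 4885 and 4809.7 CPM, none at 0, and immune markers summed to 49.5 and 52.0 CPM, with 2 of 10 at 0 in each library. The sort removed podoplanin-positive events, so these barcodes are the lymphatic cells that remained after that gate.

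**Figure D2:**
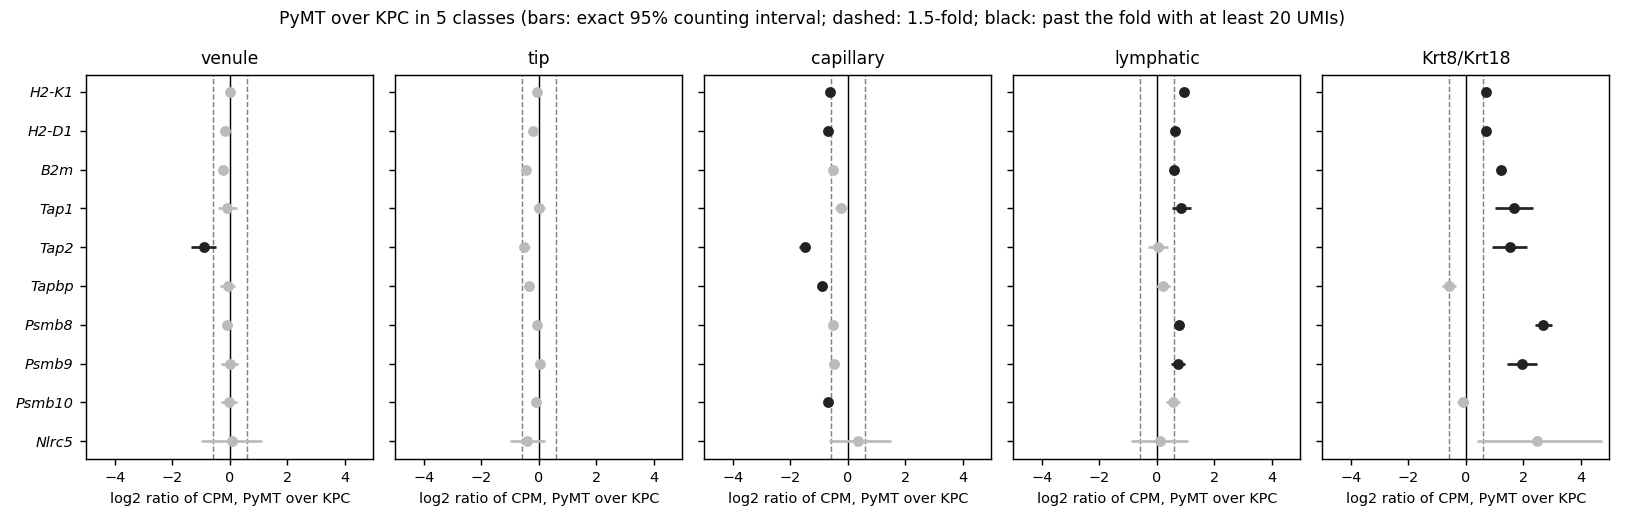
Log2 ratio of CPM, PyMT over KPC, for each gene in 5 classes, with exact 95% counting intervals as bars, 1.5-fold as dashed lines and genes past it with at least 20 UMIs in black. Capillary points lie mostly left of 0 (median -0.55), lymphatic points right of it (median 0.61), and Tap2 lies left of 0 in venule, tip and capillary barcodes.

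Venule, tip and artery barcodes had no member past the fold between the models apart from Tap2, though some differed by less. In venules H2-K1 stood at 1145 CPM (1092 to 1201) and 1137 CPM (1099 to 1176), a log2 ratio of 0.01 (-0.07 to 0.09). Of the 10 members 1 was past the fold, on the lower side in PyMT (11.6% of all features): Tap2, at 37.3 and 70.0 CPM, a log2 ratio of -0.91 (-1.36 to -0.47). B2m, at 4230 and 4996 CPM, and H2-D1, at 1866 and 2071 CPM, were lower in PyMT venules by less than the fold. With Tap2, 3 members had intervals below 0 and 0 had them above. Psmb8 (-0.08, -0.26 to 0.09), Psmb9 (-0.01, -0.29 to 0.27) and Psmb10 (-0.01, -0.29 to 0.26) had intervals around 0 that stayed within 1.5-fold. In artery barcodes Tap2 was again the 1 member past the fold of 9 with enough UMIs, at 41.0 and 95.8 CPM from 20 and 31 UMIs (-1.22, -2.11 to -0.37), where 19.4% of all features were lower. Psmb8 was higher in PyMT arteries by less than the fold, at 287 and 207 CPM (0.47, 0.04 to 0.91). In tip barcodes no member was past the fold, against 6.11% of all features higher and 11.9% lower, with B2m furthest but for Tap2: B2m had 2993 and 4107 CPM, a log2 ratio of -0.46 (-0.48 to -0.44), and Tap2 had -0.50 (-0.70 to -0.31). The tip ratio of B2m was close to its capillary ratio of -0.50. Tapbp (-0.34, -0.47 to -0.21) and H2-D1 (-0.21, -0.25 to -0.18) were also lower in PyMT tip barcodes by less than the fold. Tap2 was thus lower in PyMT in each of the 4 blood vessel classes and in the other class (-1.12, -1.26 to -0.98), under each alternative setting tried in the venule and capillary classes, and near level in lymphatic barcodes. The unnamed genes Gm20496 and Gm15821 are annotated on the strand opposite Tap2, and whether the counting used strand is not given in the sources used here.

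The Krt8/Krt18 class showed the widest differences between the models, with the reservation that its PyMT barcodes had few UMIs of epithelial markers, so that the same kind of cell may not be compared. Of the 10 members 7 were at least 1.5-fold higher in PyMT and 0 lower, where 2543 of 11555 tested features were higher (46.4% were past the fold in either direction), and the median log2 ratio was 1.37 against 0.02. Psmb8 stood at 93.4 CPM (82.7 to 105) in PyMT and 14.3 CPM (12.2 to 16.8) in KPC, a log2 ratio of 2.70. Psmb9 had 22.8 and 5.88 CPM (1.95, 1.44 to 2.47). Tap1 had 13.2 and 4.14 CPM (1.68, 1.02 to 2.33). In KPC these inducible proteasome and transporter genes were thus the scarcest of the well-counted members, with Tap2 at 5.06 CPM. Tap2 (1.53, 0.92 to 2.13), B2m (1.22, 1.16 to 1.28), H2-K1 (0.70, 0.57 to 0.83) and H2-D1 (0.69, 0.60 to 0.78) were also past the fold. Psmb10 was not, at 92.0 and 99.1 CPM (-0.11, -0.30 to 0.09), and Tapbp was lower in PyMT by just under the fold, at 58.4 and 87.5 CPM (-0.58, -0.83 to -0.35). Nlrc5 had 6 and 4 UMIs. Median depths differed, with 6939 UMIs in PyMT and 12689 in KPC. Among the 150 and 65 barcodes of 2000 to 6000 UMIs, 0 members were past the fold on the higher side and H2-K1 had a log2 ratio of -0.65, B2m 0.45 and Psmb8 0.29, so the difference was not seen among these shallower barcodes, which are few of the 794 in KPC. With barcodes thinned to 2000 UMIs before they were classed (155 and 721), 4 members stayed past the fold, with H2-K1 at 0.98, B2m at 1.17 and Psmb8 at 1.95. Endothelial markers moved the same way as the members: 6 of 10 pan-endothelial markers were past the fold on the higher side in PyMT and 0 on the lower (median log2 ratio 1.13), with summed levels of 759.6 and 310.1 CPM and none at 0.

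Endothelial RNA in the Krt8/Krt18 class sets a scale for these low levels. In KPC the 10 pan-endothelial markers stood there at 2.90% to 9.35% of their capillary level (median 3.90%), none at 0. Psmb8 stood at 4.31% of its capillary level, Tap2 at 4.46%, Psmb9 at 5.02% and Tap1 at 6.66%, all within that marker range. B2m at 11.7%, H2-K1 at 13.1% and H2-D1 at 13.5% were above it, and Tapbp at 49.1% and Psmb10 at 59.7% far above it. In PyMT the markers stood at 11.1% to 24.6% (median 13.3%) and the members at 25.2% (Tap1) to 89.2% (Psmb10), each above the highest marker. Tap1, from 39 UMIs, was barely above it, and no intervals were computed for these percentages. The part of carried-over endothelial RNA in these values was not tested.

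In the remaining classes the counts were small or mixed. Other barcodes, the most numerous class, had 2 members lower in PyMT beside 21.6% of all features, Tap2 and, at -0.84 (-1.37 to -0.32), Nlrc5, and B2m at 3558 CPM (3533 to 3584) and 4448 CPM (4409 to 4487). Pericyte barcodes had 0 members past the fold, where 14.0% of all features were higher and 21.9% lower, and B2m at 2664 and 3267 CPM. In fibroblast barcodes, with 28 in PyMT, Psmb9 (1.43, 0.23 to 2.45) and Tap1 (1.14, -0.24 to 2.27) were counted as higher beside 18.3% of all features and Tap2 (-1.76, -7.09 to 0.77) and Psmb10 (-1.29, -3.18 to 0.09) as lower beside 31.0%. Of these 4 only the interval of Psmb9 excluded 0.

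Within KPC tumors, capillaries held the highest level of 7 members (B2m, H2-D1, Psmb8, Psmb9, Psmb10, Tap2 and Tapbp), and venules that of H2-K1, Tap1 and Nlrc5. Only for H2-D1 and Psmb8 was the highest class apart from the next, and for the others their intervals overlapped. Lymphatic barcodes had 9 members at least 1.5-fold lower than capillary barcodes, where 1867 of 10622 features were lower, and 1 higher, Nlrc5 at 1.09 (-0.06 to 2.34) (35.6% of features were past the fold in either direction), with a median log2 ratio of -1.03 against 0.03 over all features. Psmb8 was the lowest relative to capillaries, at 139 against 333 CPM (-1.26, -1.41 to -1.11). H2-D1 (-1.12, -1.18 to -1.07) and H2-K1 (-1.03, -1.11 to -0.95) were at roughly equal distance. Tip barcodes had 7 members lower (17.7%) and Nlrc5 higher (9.88%), with Tap2 at -1.21 (-1.41 to -1.01), Psmb10 at -0.95 (-1.11 to -0.79) and H2-K1 at -0.91 (-0.97 to -0.85), while B2m, at -0.32 (-0.34 to -0.29), and Tap1, at -0.39 (-0.63 to -0.15), stayed short of the fold. Nlrc5 had 0.86 there, with an interval that held 0. It had 10 UMIs in capillaries against 21 in lymphatic, 43 in tip and 24 in venule barcodes. In these 3 comparisons it thus reached the minimum of 20 UMIs only through the class where it was high. The tip count fell to 3 among barcodes of 2000 to 6000 UMIs, where KPC capillaries were 483 barcodes. Venules had 2 members lower, Tap2 (-0.69, -0.94 to -0.45) and Psmb10 (-0.61, -0.81 to -0.41), beside 14.7% of all features, and Nlrc5 higher (1.55, 0.43 to 2.78) beside 8.84%. The count of 2 lower members became 0 at 1000 genes and 5% mitochondrial UMIs, with doubled class thresholds, without barcodes of more than 1 class, at 2000 to 6000 UMIs and at 2-fold. H2-K1 was level between venules and capillaries (0.01, -0.06 to 0.08). Artery barcodes had Psmb10 (-1.10, -1.74 to -0.53) and Psmb8 (-0.68, -1.06 to -0.33) lower beside 23.4% of all features.

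Within PyMT tumors the endothelial classes lay closer together. Venules had 2 members higher than capillaries, H2-K1 (0.62, 0.55 to 0.70) and Nlrc5 (1.29, 0.28 to 2.21) from 13 venule UMIs, beside 13.0% of all features. Lymphatic barcodes had Nlrc5 alone past the fold (0.85, -0.05 to 1.68) beside 20.9% of features, but H2-K1 was higher there by less than the fold (0.53, 0.47 to 0.59), and all 10 log2 ratios were above 0. Tip barcodes had none past the fold, beside 3.47% of features higher and 5.61% lower. H2-K1 (-0.37, -0.42 to -0.33), Psmb10 (-0.35, -0.47 to -0.23) and H2-D1 (-0.32, -0.35 to -0.29) were the lowest of the tip ratios. In artery barcodes only Nlrc5, with 1 UMI, was counted as lower (21.8% of all features). Against this narrow spread, the Krt8/Krt18 class had 9 members lower than capillaries in PyMT, beside 27.2% of all features, with a median log2 ratio of -1.41, from Tap1 at -1.99 (-2.49 to -1.52) to Tapbp at -0.71 (-0.95 to -0.48), and Psmb10 level at -0.17 (-0.36 to 0.02). In KPC it also had 9 lower, of 9 with enough UMIs and beside 36.0%, with a median of -3.01, from Psmb8 at -4.54 (-4.79 to -4.29) to Psmb10 at -0.75 (-0.89 to -0.60). All these ratios use the same capillary barcodes of their library and are given side by side.

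The share of immunoproteasome transcripts within a subunit pair does not depend on how a library is scaled. Psmb8 made up 56.9% (54.8 to 59.0) of the UMIs of Psmb8 and its counterpart Psmb5 in KPC capillaries and 45.2% (44.0 to 46.4) in PyMT capillaries. In lymphatic barcodes the order of the models was the reverse, with 35.1% (32.6 to 37.7) in KPC and 50.9% (48.1 to 53.7) in PyMT. Venules were alike at 50.1% (47.7 to 52.5) and 51.9% (48.3 to 55.4), and so were tip barcodes at 41.2% (39.7 to 42.6) and 40.4% (39.2 to 41.6). Over all 3 pairs, capillaries had 42.3% (41.0 to 43.7) in KPC and 32.0% (31.3 to 32.7) in PyMT, and lymphatic barcodes 24.2% (22.9 to 25.5) and 35.9% (34.3 to 37.5). The KPC capillary share was 38.7% when barcodes needed 1000 genes and under 5% mitochondrial UMIs. In the Krt8/Krt18 class the pairs came apart: in KPC Psmb8 made up 4.62% (3.94 to 5.39) and Psmb9 1.19% (0.921 to 1.52) of its pair, while Psmb10 made up 23.4% (22.2 to 24.7). In PyMT the same shares were 25.8% (23.2 to 28.5), 6.15% (4.80 to 7.74) and 25.4% (22.8 to 28.1). The Psmb10 share in KPC was nevertheless lowest in this class, against 43.8% (41.2 to 46.5) in capillaries. Of the constitutive subunits in capillaries, Psmb5 had a log2 ratio, PyMT over KPC, of 0.18, Psmb6 0.03 and Psmb7 0.12. In the Krt8/Krt18 class Psmb5 stood at 269 and 296 CPM (-0.14) and Psmb7 at 270 and 324 CPM (-0.26). Psmb6, the counterpart of Psmb9, stood there at 347 and 486 CPM (-0.49), and its higher KPC level enters the low KPC share of Psmb9.

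**Figure D3:**
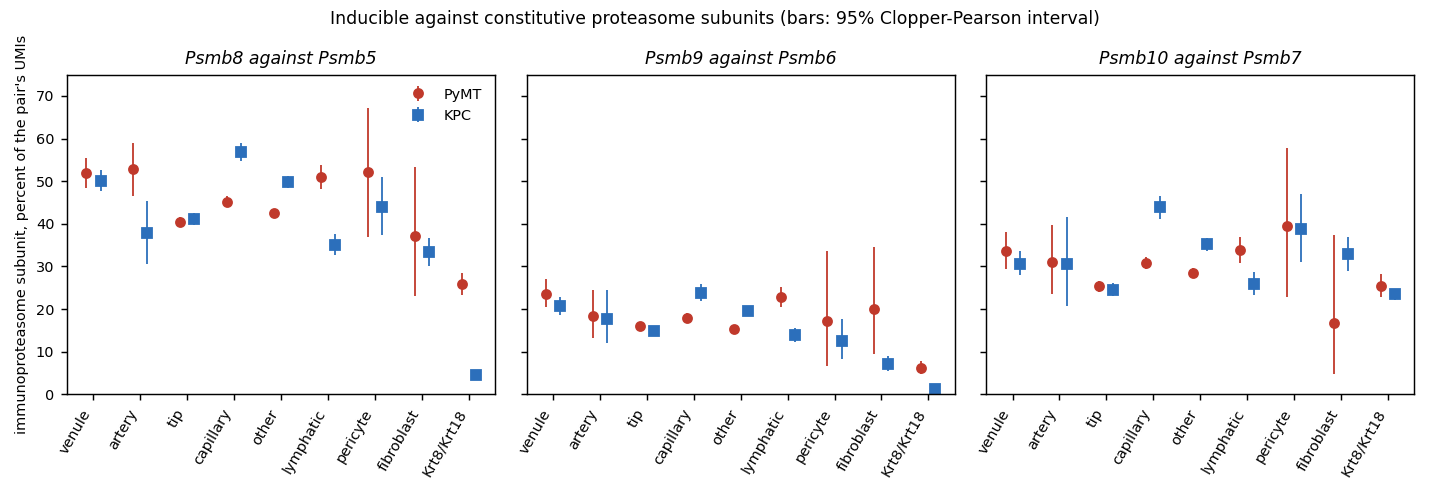
UMIs of Psmb8, Psmb9 and Psmb10 as a percent of the UMIs of each with its constitutive counterpart, by class, for PyMT (red circles) and KPC (blue squares), with 95% Clopper-Pearson intervals. In the KPC Krt8/Krt18 class the Psmb8 and Psmb9 shares are 4.62% and 1.19%, and the Psmb10 share is 23.4%, against 56.9%, 23.8% and 43.8% in KPC capillaries.

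Apart from the sparse Nlrc5, the members were higher in barcodes with more transcripts of interferon-stimulated genes. Venule, artery, tip and capillary barcodes were thinned to 2000 UMIs (4700 in PyMT and 2434 in KPC, after 374 and 910 shallower ones were left out) and split by their UMIs of 22 interferon-stimulated genes, none of them a member. Between barcodes with 0 such UMIs (760 and 274) and those with 6 or more (670 and 582), 10 of 10 members tested in PyMT and 9 of 9 in KPC were at least 1.5-fold higher, beside 8.96% and 15.8% of all other features, with median log2 ratios of 1.22 and 1.58 against -0.02 and 0.01 over all features. Nlrc5 reached the minimum of 20 UMIs in PyMT only, with 3 UMIs in the barcodes with 0 and 17 in those with 6 or more. Its place in the PyMT count thus rests on the set where it was high. In KPC it was not counted, at a log2 ratio of 0.14 (-2.00 to 2.72). Tap1 differed most among the well-counted genes, from 23.7 CPM (12.6 to 40.6) to 118 CPM (98.8 to 139) in KPC, a log2 ratio of 2.31 (1.49 to 3.26), and by 1.69 (1.25 to 2.15) in PyMT. Psmb8 went from 151 CPM (132 to 172) to 429.9 CPM (395 to 466) in PyMT (1.51, 1.28 to 1.73) and by 1.55 (1.22 to 1.90) in KPC. Tap2 had a larger ratio in KPC, 1.64 (0.97 to 2.38), than in PyMT, 0.97 (0.43 to 1.52), with overlapping intervals. The most abundant members had the smallest ratios among the well-counted genes, with H2-D1 at 0.73 (0.64 to 0.82) in PyMT and 0.97 (0.85 to 1.09) in KPC. B2m went from 2837 CPM (2753 to 2923) to 5274 CPM (5152 to 5398) in PyMT (0.89, 0.84 to 0.95) and from 3405 CPM (3252 to 3563) to 6312 CPM (6168 to 6458) in KPC (0.89, 0.82 to 0.96). B2m, H2-D1 and Psmb8 thus had a sizeable level in barcodes without any such UMI. The 4 vessel classes were pooled here, and their mix differed between the bins. Barcodes with 0 such UMIs made up 18.9% of tip and 14.6% of capillary barcodes in PyMT, and 12.9% and 10.1% in KPC. The part of this mix in the ratios was not tested. Barcodes of 1 library are not replicates, and these values describe the 2 libraries.

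**Figure D4:**
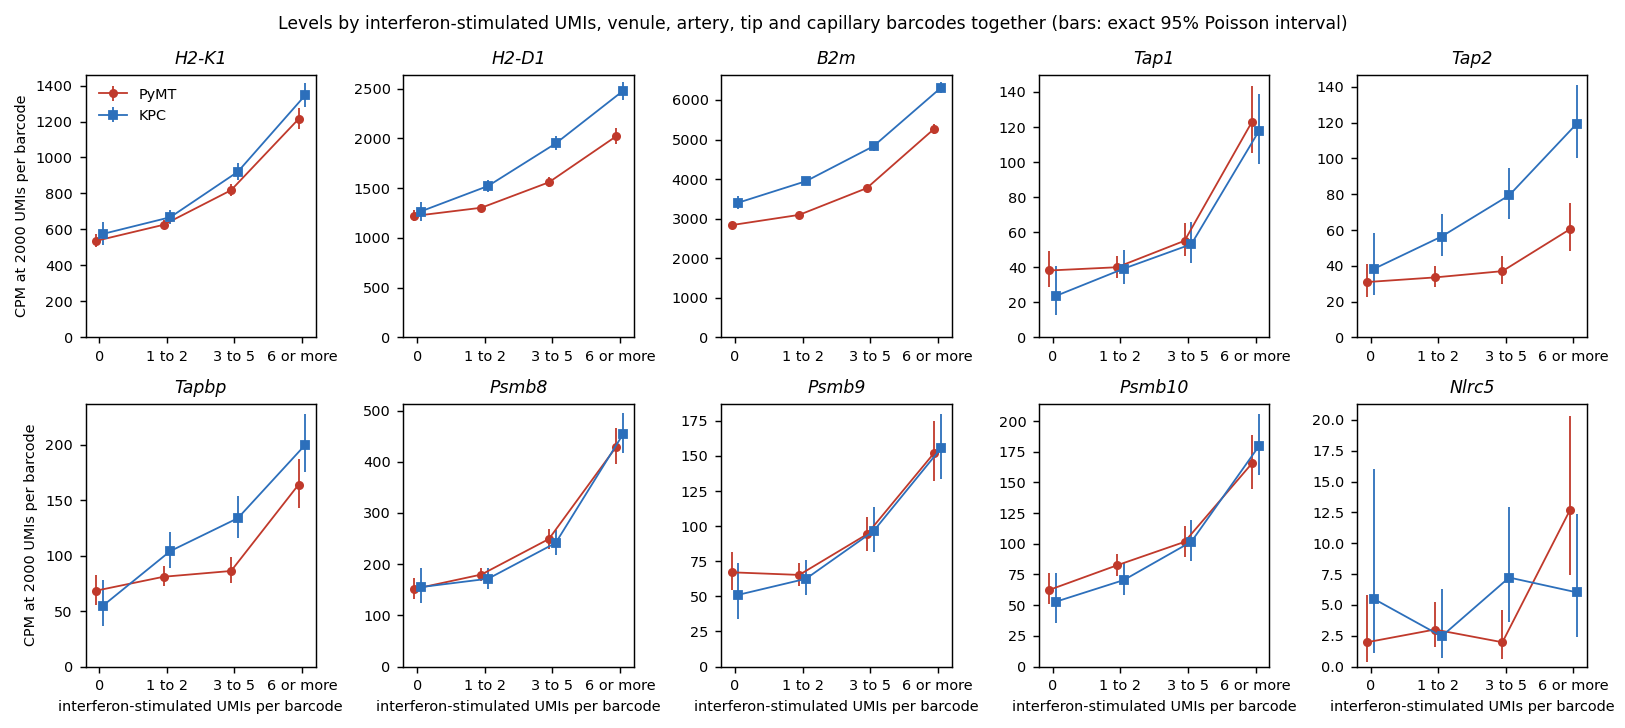
Level of each gene (CPM at 2000 UMIs per barcode) in vessel barcodes with 0, 1 to 2, 3 to 5 and 6 or more UMIs of interferon-stimulated genes, PyMT in red and KPC in blue, with exact 95% Poisson intervals. Tap1 reaches 123 and 118 CPM in the highest bin, where Tap2 has 60.4 and 119 CPM.

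The share of barcodes with 6 or more interferon-stimulated UMIs differed between the models in several classes. It was 31.2% (27.5 to 35.0) in KPC and 14.8% (13.4 to 16.3) in PyMT capillaries, 15.0% (12 to 18) and 22.3% (19 to 26) in lymphatic barcodes and 28.1% (24.4 to 32.2) and 24.2% (19.4 to 29.6) in venules. In tip barcodes it was 19.3% (17.2 to 21.6) in KPC and 11.9% (10.5 to 13.4) in PyMT. No member was past the fold there, but 5 had intervals of the log2 ratio, PyMT over KPC, below 0 and 0 had them above. In artery barcodes the share was 10.4% (4.30 to 20.3) in KPC and 18.7% (11.8 to 27.4) in PyMT, with overlapping intervals. There 3 members had ratio intervals above 0 and 1, Tap2, below. The share was higher on the side with the higher members in capillary and lymphatic barcodes. Its part in the differences between the models was not tested. When the models were compared within the same bin, a division added after the data had been seen, H2-K1 in capillaries had log2 ratios of -0.28, -0.30 and -0.33 at 0 to 2, 3 to 5 and 6 or more such UMIs. The -0.61 of the whole class was taken without thinning and is not a like value. Psmb8 had -0.0022, -0.20 and -0.32, and Psmb10 0.28, -0.28 and -0.29. The intervals of Psmb10 held 0 in each bin, and those of Psmb8 in all but the highest. Tap2 kept ratios of -1.25, -1.56 and -0.94. In lymphatic barcodes H2-K1 had 0.88, 0.84 and 1.10, and B2m 0.57, 0.61 and 0.55, near the ratios of the whole class. Others were below the fold in some bins, with H2-D1 at 0.34, 0.56 and 0.73, Tap1 at 0.93, 0.52 and 0.46 and Psmb8 at 0.61, 0.42 and 0.74. The 6 members past the fold in this class all kept ratios above 0 in each bin, but some intervals held 0. These were Tap1 at 3 to 5 (-0.61 to 1.66) and 6 or more (-0.41 to 1.37) and Psmb8 at 3 to 5 (-0.20 to 1.04). Psmb9 was also among them, at 0 to 2 (-0.12 to 1.36) and 3 to 5 (-0.07 to 1.63). These bins also leave out barcodes under 2000 UMIs, so depth and the interferon-stimulated UMIs were changed together. Over all thinned capillary barcodes, without bins, H2-K1 had a mean of 1.60 UMIs in PyMT and 2.23 in KPC, and Psmb10 0.214 and 0.273.

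The other genes of the pathway were described by the same rule. Of 13 further class I heavy chain genes, 9 were tested in capillaries and 7 were lower in PyMT, 0 higher (median log2 ratio -1.02, beside 23.3% of all features lower), while in lymphatic barcodes 3 of 9 were higher and 0 lower (median 0.33, beside 6.24% higher). The 3 were H2-Q4, H2-Q6 and H2-Q7, close copies of the members. H2-Q7 stood at 247 CPM in PyMT and 65.0 in KPC lymphatic barcodes (log2 ratio 1.93) and at 112 and 149.6 in capillaries (-0.42). Fcgrt, the neonatal Fc receptor heavy chain, which pairs with B2m but presents no peptide, was lower in PyMT in all of venule, artery, tip and capillary barcodes (mean log2 ratio -1.53, from -1.84 to -1.10). Of the 8 constitutive proteasome subunits and regulators, 0 were past the fold in venule, tip, capillary, lymphatic or Krt8/Krt18 barcodes, and the general chaperones of loading, Calr, Canx and Pdia3, had log2 ratios of 0.14, 0.02 and 0.14 in capillaries. Psme1, of the interferon-inducible proteasome activator, had -0.52 there.

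Interferon-stimulated genes went mostly the way of the members in capillary, lymphatic and Krt8/Krt18 barcodes. Of 22 interferon-stimulated genes, 10 were lower in PyMT capillaries (median log2 ratio -0.54, beside 23.3% of all features) and 3 higher, Zbp1, Cxcl9 and Cxcl10. Cxcl9, a T cell chemokine, stood at 43.8 and 3.08 CPM in PyMT and KPC capillaries, against the direction of the class I members. In lymphatic barcodes 13 were higher and 0 lower (median 0.74, beside 6.24% of all features), and in the Krt8/Krt18 class 19 were higher and 0 lower (median 1.52, beside 2543 of 11555 features). In venules the median was 0.04 and in tip barcodes -0.31, but in artery barcodes it was 0.51, where B2m had a log2 ratio of 0.22 and H2-K1 0.24. Irf1, an interferon-induced activator of Tap1 and Psmb9, stood at 31.5 and 99.0 CPM in PyMT and KPC capillaries (log2 ratio -1.65) and at 40.9 and 33.6 in lymphatic barcodes (0.28). The receptor gene Ifngr1 was lower in PyMT in capillaries (-0.70) and in the Krt8/Krt18 class (-1.24), and in the latter its direction was opposite to that of Psmb8 and Tap1. Of the Y box factors, which act at class I promoters, Nfyb and Nfyc had -0.14 and 0.11 in capillaries and Nfya -0.90.

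Across the 18 class-by-library levels, most members followed a shared pattern and 3 did not. The Pearson correlation of log2(CPM + 10) with the mean of the 10 genes was 0.979 for B2m, 0.977 for H2-K1, 0.971 for H2-D1, 0.948 for Psmb8, 0.943 for Psmb9, 0.905 for Tap1 and 0.879 for Tap2. It was 0.641 for Tapbp, 0.540 for the sparse Nlrc5 and 0.418 for Psmb10, with each gene itself part of the mean. Psmb10 and Tapbp were also the genes whose levels in the KPC Krt8/Krt18 class were closest to those of capillaries. Among 7124 other features at 20 CPM or more in at least 3 levels, the closest to the mean of the members were Gbp7 (0.953), an interferon-induced GTPase, Arhgap31 (0.951), Fli1 (0.941), an endothelial ETS factor, Pecam1 (0.937) and Tspan12 (0.937). The 18 levels come from 2 libraries and share their depth and any carried-over RNA, and the low levels of the Krt8/Krt18 and fibroblast classes weigh heavily in each r.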

How the data were processed

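Per the labels and file headers, the authors sequenced 2 droplet libraries with 10x Chromium 3' chemistry (given as v2 in one place and v3 in another), processed them with Cell Ranger (3.0.2 in the matrix headers) on mm10, and deposited UMI counts per gene and barcode, not normalized and with contaminating cells included. The deposited counts total 55547926 UMIs in PyMT and 44441942 in KPC, with medians of 3805 and 2958 UMIs per barcode.

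From these counts, UMIs were summed over the barcodes of a class and scaled to CPM, with exact Poisson intervals. Pairs of summed sets were compared as log2 ratios of their CPM, with exact binomial intervals conditional on the sum, shares have Clopper-Pearson intervals, and the level of a count of 0 is given for 3 counts. All intervals are at 95%. A gene was counted as different at 1.5-fold with at least 20 UMIs over both sets, and the same rule over all features gives the background. UMIs of 1 barcode were thinned by drawing without replacement (seed 1). No doublet caller was used, and 1237 PyMT and 728 KPC barcodes met the rules of more than 1 class, which were left out as an alternative. Ratios and intervals were tested on simulated counts. The genes and lists were chosen with earlier results of these data known. All 10 members entered each comparison, but in several of them values are given for only some members. Other genes are named where they were past the fold in the same direction in 4 vessel classes or among the 5 most alike in level. Further genes were singled out from the lists after their values were seen. Alternatives covered filters, scaling, thinning, class thresholds, immune and interferon-rich barcodes, depth, fold and UMI minimum. Python 3.11.15, numpy 2.4.6, scipy 1.17.1, pandas 2.3.3 and matplotlib 3.10.9 were used. Proteins were not used here, and some items that the rule on named genes would give are not reported here.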

Additional observations from a re-analysis of the deposited data

Results flagged for a closer look

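H2-K1 and H2-D1 were past 1.5-fold in opposite directions in 2 endothelial classes of the same libraries, lower in PyMT in capillary barcodes and higher in lymphatic barcodes. The log2 ratio of H2-K1, PyMT over KPC, was -0.61 in capillary and 0.96 in lymphatic barcodes, a difference of 1.56. For H2-D1 the values were -0.68 and 0.62, a difference of 1.30. With the median of all features set to 0 the capillary values were -0.46 and -0.54, and with barcodes of 2000 to 6000 UMIs -0.45 and -0.51, all short of the fold, and the lowest lymphatic value of H2-D1 over the settings tried was 0.34. The signs held under each of the 13 settings. With 1 library per model these differences were not tested, and the counting intervals of the ratios of each gene did not overlap between the classes. H2-Q4, H2-Q6 and H2-Q7 had ratios of the same signs, with H2-Q6 at -1.02 in capillary and 2.27 in lymphatic barcodes. Near the 3' end, windows of these genes are shared with some H2-K1 transcripts, so reads could be shared, but none with the H2-D1 transcripts.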

How the results depend on the processing

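Each count of members past the fold was computed again under 13 other settings. So was each ratio named for the venule, capillary, lymphatic and Krt8/Krt18 classes. Of the settings 12 were planned and 1, thinning with at most 2 interferon-stimulated UMIs per barcode, was added after the data had been seen. Where barcodes of 6 or more interferon-stimulated UMIs were left out, these UMIs were counted without thinning. That setting thus leaves out deeper barcodes more readily. Immunoproteasome shares were computed again only at 1000 genes and 5% mitochondrial UMIs, without immune barcodes, and with barcodes thinned before classing. No filter on barcodes and leaving out immune barcodes kept every count of members within 1.5 times, and the 6 lymphatic members above the fold kept their sign under all settings (H2-K1 from 0.88 to 1.24). With barcodes of at least 1000 genes and under 5% mitochondrial UMIs, members lower in PyMT than in KPC numbered 2 (from 5) in capillary and members higher than in capillaries numbered 1 (from 2) in PyMT venule and members lower than in capillaries numbered 0 (from 1) in PyMT artery, 0 (from 2) in KPC venule barcodes. With barcodes of at least 1000 genes and under 5% mitochondrial UMIs, immunoproteasome shares were 38.7% (from 42.3%) in KPC capillary, 32.1% (from 35.3%) in KPC other. With the median log2 ratio of all features set to 0, members lower in PyMT than in KPC numbered 2 (from 5) in capillary and members higher in PyMT than in KPC numbered 1 (from 0) in pericyte and members lower than in capillaries numbered 1 (from 2) in KPC venule barcodes. With each barcode weighted equally, members lower in PyMT than in KPC numbered 3 (from 1) in artery, 4 (from 2) in other and members higher in PyMT than in KPC numbered 1 (from 0) in pericyte and members lower than in capillaries numbered 4 (from 2) in KPC artery barcodes. With barcodes thinned to 2000 UMIs before they were classed, members lower in PyMT than in KPC numbered 0 (from 1) in artery, 3 (from 5) in capillary, 1 (from 2) in other and members higher in PyMT than in KPC numbered 4 (from 7) in Krt8/Krt18 and members higher than in capillaries numbered 1 (from 2) in PyMT venule, 0 (from 1) in PyMT lymphatic and members lower than in capillaries numbered 1 (from 2) in KPC venule, 4 (from 2) in KPC artery barcodes. With barcodes thinned to 2000 UMIs before they were classed, immunoproteasome shares were 42.2% (from 37.6%) in PyMT venule, 33.4% (from 32.0%) in PyMT capillary, 38.1% (from 35.9%) in PyMT lymphatic, 39.5% (from 34.8%) in KPC venule, 20.4% (from 28.8%) in KPC artery, 28.4% (from 27.4%) in KPC tip, 31.4% (from 35.3%) in KPC other, 27.1% (from 24.2%) in KPC lymphatic, 40.1% (from 31.0%) in KPC pericyte, 10.4% (from 9.74%) in KPC Krt8/Krt18. With doubled class thresholds, members lower in PyMT than in KPC numbered 1 (from 2) in other and members higher in PyMT than in KPC numbered 1 (from 0) in pericyte and members lower than in capillaries numbered 2 (from 1) in PyMT artery, 0 (from 2) in KPC venule, 6 (from 2) in KPC artery barcodes. Without barcodes that met the rules of more than 1 class, members higher in PyMT than in KPC numbered 1 (from 0) in pericyte and members lower than in capillaries numbered 0 (from 1) in PyMT artery, 0 (from 2) in KPC venule and members higher than in capillaries numbered 2 (from 1) in PyMT lymphatic barcodes. Without barcodes of 6 or more interferon-stimulated UMIs, members lower in PyMT than in KPC numbered 3 (from 1) in artery and members higher in PyMT than in KPC numbered 3 (from 6) in lymphatic, 1 (from 2) in fibroblast and members higher than in capillaries numbered 0 (from 2) in PyMT venule and members lower than in capillaries numbered 2 (from 1) in PyMT artery, 4 (from 2) in KPC venule barcodes. With barcodes of 2000 to 6000 UMIs only, members lower in PyMT than in KPC numbered 2 (from 5) in capillary and members higher in PyMT than in KPC numbered 1 (from 0) in pericyte, 0 (from 7) in Krt8/Krt18 and members higher than in capillaries numbered 1 (from 2) in PyMT venule and members lower than in capillaries numbered 2 (from 1) in PyMT artery, 0 (from 2) in KPC venule, 5 (from 2) in KPC artery, 3 (from 7) in KPC tip barcodes. At 2-fold, members lower in PyMT than in KPC numbered 0 (from 1) in venule, 1 (from 5) in capillary, 1 (from 2) in other and members higher in PyMT than in KPC numbered 0 (from 6) in lymphatic and members higher than in capillaries numbered 1 (from 2) in PyMT venule, 0 (from 1) in PyMT lymphatic and members lower than in capillaries numbered 0 (from 1) in PyMT artery, 0 (from 2) in KPC venule, 1 (from 2) in KPC artery, 1 (from 7) in KPC tip barcodes. With at least 100 UMIs per gene, members lower in PyMT than in KPC numbered 0 (from 1) in artery and members higher in PyMT than in KPC numbered 0 (from 2) in fibroblast and members higher than in capillaries numbered 1 (from 2) in PyMT venule, 0 (from 1) in PyMT lymphatic and members lower than in capillaries numbered 0 (from 1) in PyMT artery barcodes. Thinned, with at most 2 interferon-stimulated UMIs, members lower in PyMT than in KPC numbered 0 (from 1) in venule, 0 (from 1) in artery, 1 (from 5) in capillary, 0 (from 2) in other and members higher than in capillaries numbered 0 (from 2) in PyMT venule, 0 (from 1) in PyMT lymphatic and members lower than in capillaries numbered 3 (from 1) in PyMT artery, 1 (from 2) in KPC venule, 1 (from 2) in KPC artery, 3 (from 7) in KPC tip barcodes. Signs turned for members past the fold in the Krt8/Krt18 class with barcodes of 2000 to 6000 UMIs, where H2-K1 had -0.65, Tap1 had -0.94, Tap2 had -0.0034, Psmb9 had -0.0034, and for Psmb10 in capillaries, at 0.28 when thinned with at most 2 interferon-stimulated UMIs. They also turned for Psmb10 in KPC Krt8/Krt18 over capillary barcodes (0.42) and in fibroblasts (0.65) under that same setting, for Nlrc5 in KPC tip over capillary barcodes (-1.33) and Tap1 in fibroblasts (-0.58) without barcodes of 6 or more interferon-stimulated UMIs, for Psmb9 in fibroblasts (-0.13) when thinned before classing, and for Nlrc5 in PyMT artery over capillary barcodes with doubled thresholds (0.59) and with at most 2 interferon-stimulated UMIs (1.87). The causes of these changes were not tested, beyond the fewer barcodes or UMIs that each setting leaves. Sparse genes limit the depth of any statement on Nlrc5, and the pericyte and fibroblast classes hold too few PyMT barcodes for more than B2m and the heavy chains. No paired analysis was possible because each model has 1 library, without replicate numbers.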

Other observations

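Class II genes, which present peptides to CD4+ T cells, differed between the models in venules. There the class I members had a median log2 ratio of -0.08, with 3 intervals below 0 and 0 above. They were scarce in both libraries, and every one with enough UMIs was lower in PyMT: 4 of 4 in venules and 5 of 5 in capillary barcodes, beside 11.6% and 23.3% of all features. The invariant chain gene Cd74 stood at 16.0 and 44.1 CPM in PyMT and KPC venules (log2 ratio -1.46) and at 23.2 and 15.8 CPM in lymphatic barcodes (0.55). H2-Ab1 had -1.52 in venules, where the class I members H2-K1 and Tap2 had 0.01 and -0.91. Immune barcodes were 0 of the 360 PyMT and 7 of the 640 KPC venule barcodes, and the 10 immune markers summed to 11.3 and 29.7 CPM in PyMT and KPC venules (7 and 3 of them at 0) and to 25.0 and 70.7 CPM in capillaries, the direction of the class II genes. The part of immune RNA in these values was not tested.

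Ligands of T and NK cell receptors were rare. Raet1e, a ligand of the activating receptor NKG2D, stood at 23.3 and 10.6 CPM in PyMT and KPC capillaries (log2 ratio 1.13), opposite in direction to the class I members there, and at 27.3 and 24.9 CPM in venules. Cd274, which encodes PD-L1, stood at 2.13 and 7.27 CPM in capillaries (-1.77), the direction of the members.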
